A study of Mus musculus with 30 samples.

Results

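The genes described here are 36 mouse integrin and laminin genes, chosen as named members of these families and found by symbol among the 55487 identifiers of a count table of oral tissue. They comprise 8 chains of epithelial integrins and laminins, 8 chains of leukocyte integrins, 13 other integrin chains and 7 other laminin chains. RNA was sequenced from 30 samples that the labels place in 5 pathological stages: 3 normal samples, 8 of hyperplasia, 7 of dysplasia, 6 of carcinoma in situ and 6 of invasive carcinoma. The model is chemical: 4-nitroquinoline 1-oxide (4NQO), a carcinogen that forms DNA adducts, is dissolved in the drinking water. One protocol stands on every sample, which is male C57BL/6J mice whose exposure began at 6 weeks of age and lasted 10 weeks at 100 ug/mL, and the tissue label is oral squamous cell carcinoma throughout. The labels therefore do not say whether the mice of the normal samples drank the carcinogen. They also do not say how long after exposure tissue was taken, or whether each sample is a separate animal, so the spread behind each p-value is that between samples and may be technical.

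Integrins are transmembrane receptors made of an α and a β chain, and they tie the cytoskeleton to the extracellular matrix or to other cells. Laminins are trimers of α, β and γ chains that build basement membranes. In stratified epithelium α6β4 forms the core of the hemidesmosome and binds laminin-332, whose α3 and β3 chains are encoded by Lama3 and Lamb3; α3β1 binds the same laminin. Leukocytes carry the β2 and β7 integrins, which bind adhesion molecules on endothelium and epithelium. Skeletal muscle uses α7β1 and laminins with the α2 and β2 chains.

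The promoter windows of 4 members are shown because these genes stand for the opposite courses described below. Itga3 and Lamb3 stand for the epithelial chains that were higher in both carcinoma stages, Itgax for the leukocyte chains and Lama2 for the laminins that fell. The windows are RefSeq sequences on GRCm38.p6, from 250 bases before to 50 bases after an annotated start, printed in the direction of transcription. Capitals mark matches, on either strand, to TGANTCA (the AP-1 motif), AGGAAG (an ETS motif) and GGGCGG (an SP/KLF motif); no matches of different motifs overlapped in them. A match describes the letters and is not evidence of binding.
Itga3, chr11:95076665-95076964, minus strand: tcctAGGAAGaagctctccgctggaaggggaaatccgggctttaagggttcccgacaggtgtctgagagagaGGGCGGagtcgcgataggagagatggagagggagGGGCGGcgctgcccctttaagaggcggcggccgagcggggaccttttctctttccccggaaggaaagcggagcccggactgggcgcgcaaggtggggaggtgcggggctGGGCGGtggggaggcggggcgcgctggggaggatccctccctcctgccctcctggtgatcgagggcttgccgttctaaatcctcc
Lamb3, chr1:193301744-193302043, plus strand: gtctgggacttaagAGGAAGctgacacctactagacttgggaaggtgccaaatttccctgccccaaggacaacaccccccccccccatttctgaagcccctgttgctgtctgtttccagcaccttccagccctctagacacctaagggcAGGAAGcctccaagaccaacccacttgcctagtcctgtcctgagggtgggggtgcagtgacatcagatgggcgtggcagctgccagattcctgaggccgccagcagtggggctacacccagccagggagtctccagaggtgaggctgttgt
Itgax, chr7:128129300-128129599, plus strand: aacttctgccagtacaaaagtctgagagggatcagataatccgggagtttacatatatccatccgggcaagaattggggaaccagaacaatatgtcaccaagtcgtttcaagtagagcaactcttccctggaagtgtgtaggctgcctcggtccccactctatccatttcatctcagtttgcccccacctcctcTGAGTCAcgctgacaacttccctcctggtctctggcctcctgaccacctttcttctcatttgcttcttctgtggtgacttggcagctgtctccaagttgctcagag
Lama2, chr10:27616893-27617192, minus strand: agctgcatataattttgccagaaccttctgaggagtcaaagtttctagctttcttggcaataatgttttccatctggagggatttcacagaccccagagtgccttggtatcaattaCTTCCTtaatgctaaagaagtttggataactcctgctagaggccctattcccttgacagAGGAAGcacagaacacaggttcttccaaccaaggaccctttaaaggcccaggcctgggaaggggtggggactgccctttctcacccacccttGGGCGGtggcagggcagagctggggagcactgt
Windows were found for 23 members, with 26 windows in all because Itga3, Itgb6 and Lamb3 have more than 1. The AP-1 letters stood in 3 of the 26 windows (a second Itga3 start, Itgax and Itga9), and in 7.81% of all 32851 mouse windows. The ETS letters stood in 13 of the 26 and in 35.4% of all windows, and the SP/KLF letters in 12 of the 26 and in 35.7%. In the printed Itgax window the AP-1 letters begin 56 bases before the start, and in the printed Itga3 window the SP/KLF letters occur 3 times.

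Libraries held 17725604 to 28023098 counts, and 17638 genes had enough to be tested. Levels are given in CPM, a gene's count relative to the scaled total of its library, and a call means a Benjamini-Hochberg adjusted p under 0.05 over all genes tested in edgeR's quasi-likelihood test. The number in the sample code names the samples here. The code letter differs between normal, hyperplasia, dysplasia and the carcinomas, so a batch that follows it cannot be told apart from stage except between carcinoma in situ and invasive carcinoma. Tissue make-up differed between stages: basal keratinocyte markers summed to 8243 to 20690 CPM in invasive carcinoma and 4348 to 5750 CPM in normal samples. Skeletal muscle markers summed to 16910 to 41450 CPM in invasive carcinoma and 57090 to 76120 CPM in normal samples, and leukocyte markers to 129.3 to 180.1 CPM and 53.2 to 78.3 CPM in those groups. In bulk tissue, fewer cells of a type and less RNA per cell cannot be told apart. Invasive carcinoma sample 12 held the highest basal keratinocyte sum (20690 CPM) and the lowest muscle sum (16910 CPM). Normal sample 1 held 10050 CPM of salivary gland markers, against 56.2 and 49.9 CPM in the other normal samples, and 37.1 CPM of platelet markers, against 7.94 and 8.66 CPM.

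Of the 36 members, 35 were tested; Itgad, the αD chain of a leukocyte integrin, had only 52 counts in all 30 samples. Across the 5 stages 24 of the 35 changed (68.6%, against 53.2% of all genes tested). Invasive carcinoma against normal tissue had 14 that rose and 9 that fell, which is 65.7% of the members tested, where 46.1% of all genes tested were called. Carcinoma in situ had 15 that rose and 3 that fell (51.4%; all genes 37.6%, of which 19.4% higher and 18.2% lower). Dysplasia had 8 and 2 (28.6%; all genes 25.7%, of which 13.3% higher and 12.4% lower), and hyperplasia 5 and 1 (17.1%; all genes 14.3%, of which 8.22% higher and 6.07% lower). Between neighbouring stages 1 member rose in dysplasia against hyperplasia (2.86%; all genes 5.18%, of which 2.99% higher and 2.19% lower), and 4 rose and 1 fell in carcinoma in situ against dysplasia (14.3%; all genes 5.47%, of which 2.99% higher and 2.47% lower). These 4 rises, the 15 in carcinoma in situ against normal tissue and the 24 over the stages each include Lama1. Lama1 passed the expression filter only through carcinoma in situ samples, so its calls cannot stand as tests. No member was called in invasive carcinoma against carcinoma in situ by edgeR, DESeq2 or limma-voom, and edgeR called no gene at all there (0%), with 1259 of the 17638 at an unadjusted p under 0.05. In invasive carcinoma against hyperplasia 9 rose and 8 fell (48.6%; all genes 38.4%).

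The per-sample values were also set apart by overlap. In invasive carcinoma 13 members lay above every normal sample in all 6 samples (17.2% of all genes did) and Lama2 and Lamb2 lay below every one (15.2% of all genes). In carcinoma in situ 12 members lay above all normal samples (all genes 14.1%) and Itga8 below (12.5%), and in dysplasia 7 lay above (11.6%) and 0 below (8.95%). In hyperplasia 6 lay above (all genes 9.13%), which were Itgb4, Lama3, Itgae, Itgax, Itgb7 and Itga10, and Itgb5 and Lamc3 lay below (5.52%). Itga2, Itga3, Itga6, Lama3 and Itgal lay above every hyperplasia sample in all 6 invasive carcinoma samples (3.9% of all genes) and 0 members lay below (3.96%). No member was free of overlap in dysplasia against hyperplasia (all genes 1.06% above and 0.862% below), in carcinoma in situ against dysplasia (0.567% and 0.544%) or in invasive carcinoma against carcinoma in situ (0.0907% and 0.0907%).

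Every comparison with normal tissue uses the same 3 normal samples, so the columns of the plot of changes from normal are not independent.

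**Figure D1:**
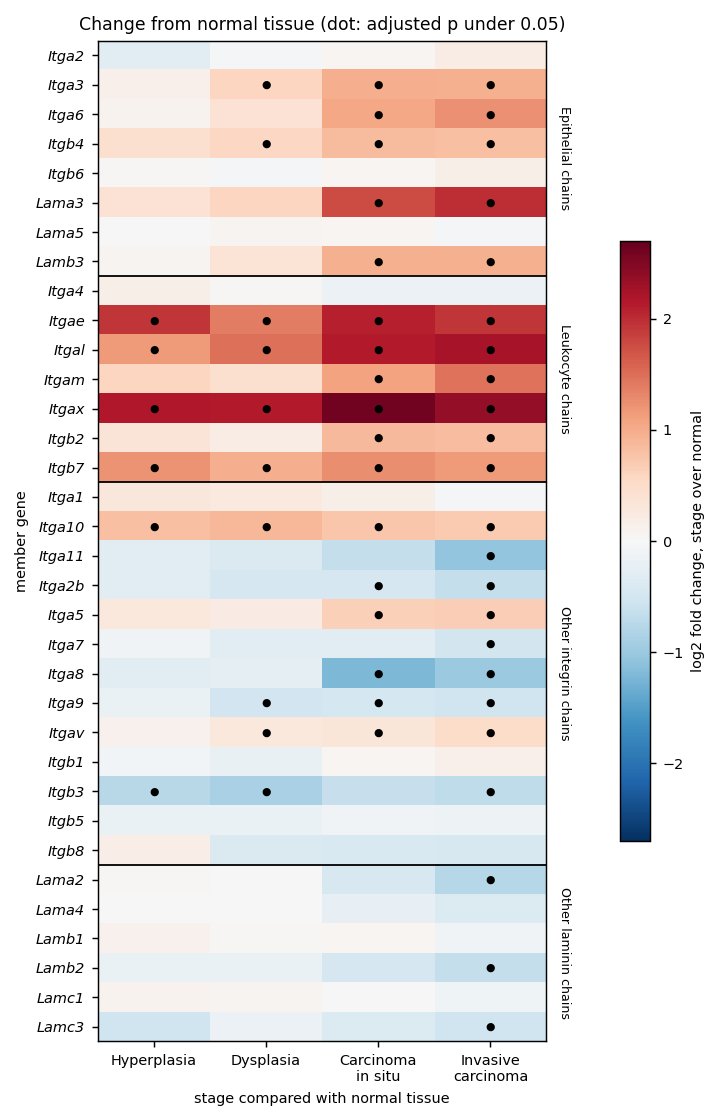
Log2 fold change of 34 tested members (rows, grouped by kind of chain; Lama1, with 109 counts in all, is left out) in each stage over normal tissue (columns); red is higher in the stage, blue lower, and a dot marks an adjusted p under 0.05. Of the leukocyte rows 4 carry dots from hyperplasia on, and 5 epithelial rows carry them from dysplasia or carcinoma in situ on, and the falls in the lower rows lie mostly in the invasive carcinoma column.

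Among the epithelial chains, the hemidesmosome integrin pair Itga6 and Itgb4, the laminin-332 chains Lama3 and Lamb3, and the α3 chain Itga3 rose in both carcinoma stages against normal tissue. None was called in invasive carcinoma against carcinoma in situ, with log2 fold changes from -0.05 (Itgb4) to 0.23 (Lama3). The median of each of them was lower in invasive carcinoma than in carcinoma in situ. Against normal tissue, 5 of the 8 epithelial chains rose in invasive carcinoma and 0 fell, with a median log2 fold change of 0.88, against 0.02 over all genes tested. In hyperplasia 0 of the 8 were called, and in dysplasia Itga3 (0.59, adjusted p = 0.0184) and Itgb4 (0.56, 0.0439) were. Without normal sample 2 neither was called in dysplasia (0.54 and 0.123 for Itga3, 0.50 and 0.204 for Itgb4). The share of all genes called higher was 23.4% in invasive carcinoma and 8.22% in hyperplasia, each against normal tissue.

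Lama3 (chr18:12333819-12583013 on GRCm38), the α3 laminin chain, had the largest log2 fold change of the epithelial chains. It measured 37.7, 42.0 and 41.0 CPM in the 3 normal samples. As lowest, median and highest it measured 46.0, 53.4 and 60.6 CPM at hyperplasia, 44.2, 59.7 and 73.5 at dysplasia, 61.8, 134 and 243 at carcinoma in situ and 74.0, 97.8 and 389 at invasive carcinoma. Every invasive carcinoma sample lay above every normal and every hyperplasia sample, and sample 12 was the highest of all 30. The log2 fold change was 1.995 ± 0.43 (SE) in invasive carcinoma against normal tissue (adjusted p = 0.000652, edgeR) and 1.60 ± 0.30 against hyperplasia (adjusted p = 0.000284). The step from dysplasia to carcinoma in situ was 1.17 (adjusted p = 0.0285), and without carcinoma in situ sample 2 it was 0.93 (adjusted p = 0.095).

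Lamb3 (chr1:193207699-193343878), the β3 chain whose promoter window is printed above, measured 73.5, 72.1 and 82.9 CPM in normal samples. It ran from 70.7 through a median of 78.4 to 93.5 CPM at hyperplasia, from 79.4 through 101 to 114 at dysplasia, from 95.4 through 157 to 197 at carcinoma in situ and from 90.8 through 115 to 255 at invasive carcinoma. All 6 invasive carcinoma samples were above all normal samples, but the lowest of them was below the highest hyperplasia sample. Invasive carcinoma stood 0.97 ± 0.24 (log2) above normal tissue (adjusted p = 0.00171). Against hyperplasia it was 0.90 ± 0.17 (adjusted p = 0.000322).

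Itga6 (chr2:71745616-71858416), the α6 chain that pairs with β4 in hemidesmosomes, measured 121, 143 and 146 CPM in normal samples. Its lowest, median and highest values were 136, 141 and 164 CPM at hyperplasia, 158, 179 and 203 at dysplasia, 168, 280.2 and 425 at carcinoma in situ and 199, 247 and 652 at invasive carcinoma. All 6 invasive carcinoma samples exceeded every hyperplasia sample. Its log2 fold change was 1.23 ± 0.28 against normal tissue (adjusted p = 0.000747) and 1.14 ± 0.20 against hyperplasia (adjusted p = 0.000116).

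Itgb4 (chr11:115974709-116008412), the β4 chain with the long cytoplasmic tail that reaches the keratin filaments, had a smaller fold change than Itga6. It measured 166, 160.5 and 198 CPM in normal samples. Lowest, median and highest values were 201, 239 and 266 CPM at hyperplasia, 210.1, 254 and 296 at dysplasia, 237, 302 and 436 at carcinoma in situ and 218, 257 and 543 at invasive carcinoma. Every hyperplasia sample already lay above every normal sample, although that difference of 0.43 (log2) was not called (adjusted p = 0.144). It was called in limma-voom (adjusted p = 0.0317) and in a fit of only these 2 stages (0.00813), and that fit also called Lama3 (0.39, 0.00938), which was 0.40 with all stages (0.536). In invasive carcinoma the log2 fold change was 0.80 ± 0.21 against normal tissue (adjusted p = 0.00284) and 0.37 against hyperplasia, which was not called (adjusted p = 0.0568).

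Itga3 (chr11:95044474-95076801), the α3 chain of the laminin-332 receptor α3β1, was the only epithelial chain called in dysplasia against hyperplasia in the edgeR fit of all stages. It measured 42.8, 37.9 and 40.1 CPM in normal samples. Lowest, median and highest values were 39.3, 44.4 and 48.5 CPM at hyperplasia, 45.9, 61.2 and 67.0 at dysplasia, 50.7, 82.1 and 98.5 at carcinoma in situ and 61.6, 67.8 and 126 at invasive carcinoma. Of the 7 dysplasia samples, 6 lay above all hyperplasia samples, and sample 7, at 45.9 CPM, lay among them. The Itga3 difference between dysplasia and hyperplasia was 0.45 (log2, adjusted p = 0.0396), and 11 of the 30 ways of leaving out a sample ended that call. A fit of only these 2 stages also called Itga6 (adjusted p = 0.00914) and Lamb3 (0.0143). Besides Itga3, limma-voom called the epithelial chains Itga6 (adjusted p = 0.0291), Lamb3 (0.0335) and Itga2 (0.0275). In invasive carcinoma it was 0.96 ± 0.19 above normal tissue (adjusted p = 0.000218) and 0.83 ± 0.14 above hyperplasia (adjusted p = 6.89e-05).

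Itga2, the α2 chain of the collagen receptor α2β1, had its lowest median in hyperplasia. It measured 10.2, 11.4 and 14.7 CPM in normal samples, from 7.64 through a median of 9.77 to 11.8 CPM at hyperplasia, from 8.04 through 11.7 to 14.6 at dysplasia, from 11.3 through 12.01 to 14.3 at carcinoma in situ and from 12.5 through 12.9 to 19.1 at invasive carcinoma. All 6 invasive carcinoma samples lay above all 8 hyperplasia samples, at 0.51 ± 0.13 (log2, adjusted p = 0.00318), whereas the difference from normal tissue, 0.20, was not called (adjusted p = 0.347). With the basal keratinocyte score in the model the difference from hyperplasia was -0.05 (adjusted p = 0.908), and with the skeletal muscle score it was 0.21 (0.366). Lama5, the α5 chain that is widespread in epithelial basement membranes, averaged 72.9 ± 8.41 CPM in invasive carcinoma and 75.9 ± 13.4 CPM in normal tissue (SD, n = 6 and 3), a log2 fold change of -0.06 (adjusted p = 0.713). Itgb6, the β6 chain of the epithelial receptor that activates latent TGF-β, averaged 29.6 ± 6.33 and 26.4 ± 15.0 CPM in the same groups, and its normal samples ran from 9.27 CPM in sample 1 to 37.1 CPM. Neither was called in any comparison.

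**Figure D2:**
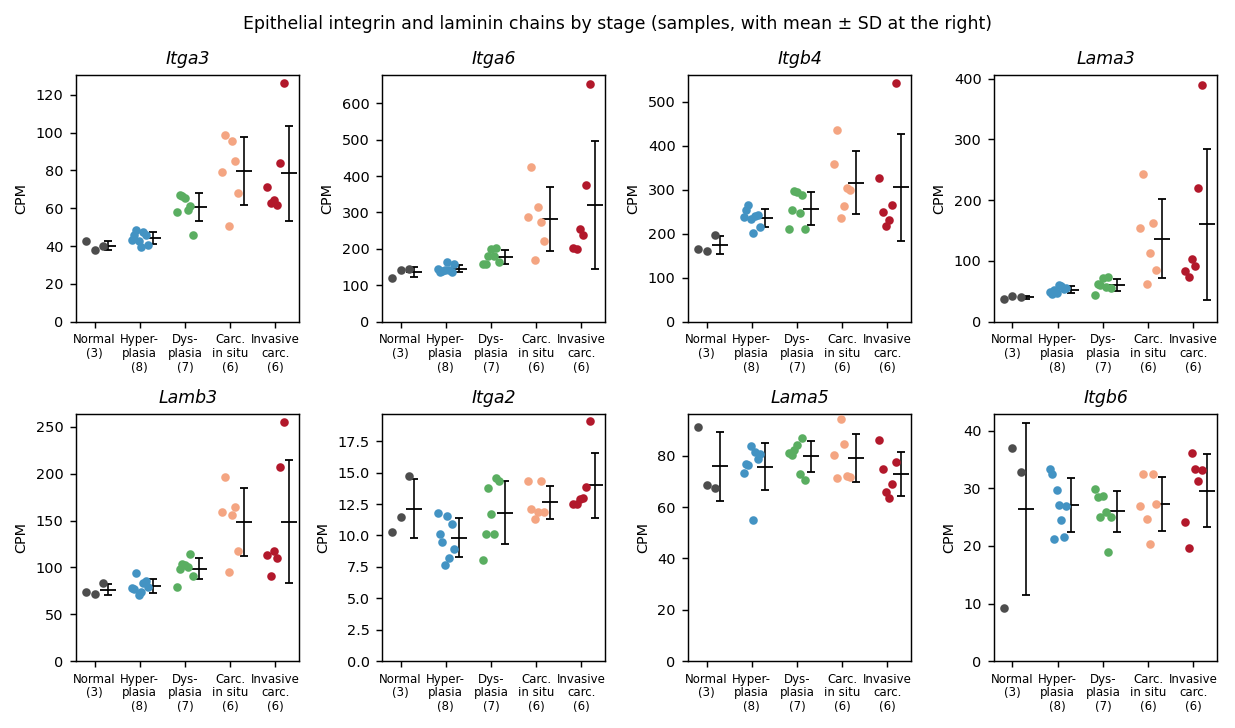
CPM of the 8 epithelial chains (panels) in each sample (points) by stage, with the mean ± SD beside the points; numbers of samples stand under the stages. Invasive carcinoma sample 12 is the top point for Itga3 (126 CPM), Itga6 (652), Itgb4 (543), Lama3 (389), Lamb3 (255) and Itga2 (19.1).

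Leaving out any one of the 30 samples kept the 5 calls of epithelial chains in invasive carcinoma against normal tissue, and without sample 12 the log2 fold change of Lama3 was 1.51. An edgeR fit of only these 2 stages kept the calls of Itga3 (adjusted p = 0.0137), Itga6 (0.0387) and Lama3 (0.0378). It did not call Itgb4 (0.80, adjusted p = 0.0561) or Lamb3 (0.97, 0.0533). Basal keratinocyte markers moved with these chains: 6 of the 7 rose and 0 fell in invasive carcinoma against normal tissue, the summed levels of the 2 groups did not overlap, and sample 12 had the highest sum. With the basal keratinocyte score in the model, the invasive carcinoma difference from normal tissue was -0.18 for Lama3 (adjusted p = 0.917), -0.33 for Lamb3 (0.5853), -0.15 for Itga6 (0.887), -0.17 for Itgb4 (0.834) and 0.14 for Itga3 (0.871). With the leukocyte score in the model all 5 stayed called, at 2.34, 1.05, 1.37, 1.29 and 0.86. With the skeletal muscle score in the model Itga3 was called at 0.54 (adjusted p = 0.0446), while Lama3 was 0.91 (0.120), Lamb3 0.34 (0.288), Itga6 0.55 (0.155) and Itgb4 0.32 (0.310). In carcinoma in situ against normal tissue, Itga3 (0.71, adjusted p = 0.00364) and Itgb4 (0.56, 0.0282) stayed called with the muscle score. Lama3 (1.11, 0.0279) and Lamb3 (0.57, 0.0317) also did, while Itga6 did not (0.62, 0.0559). In invasive carcinoma against hyperplasia no call of these chains remained with the basal keratinocyte score, at -0.02 for Lama3 (adjusted p = 0.985), -0.06 for Lamb3 (0.911), 0.11 for Itga6 (0.844) and 0.23 for Itga3 (0.517). The basal keratinocyte sums were 5351 to 7783 CPM in hyperplasia and 8243 to 20690 CPM in invasive carcinoma. Where groups do not overlap in a score, here and below, a fit with it cannot tell tissue make-up from stage.

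**Figure D3:**
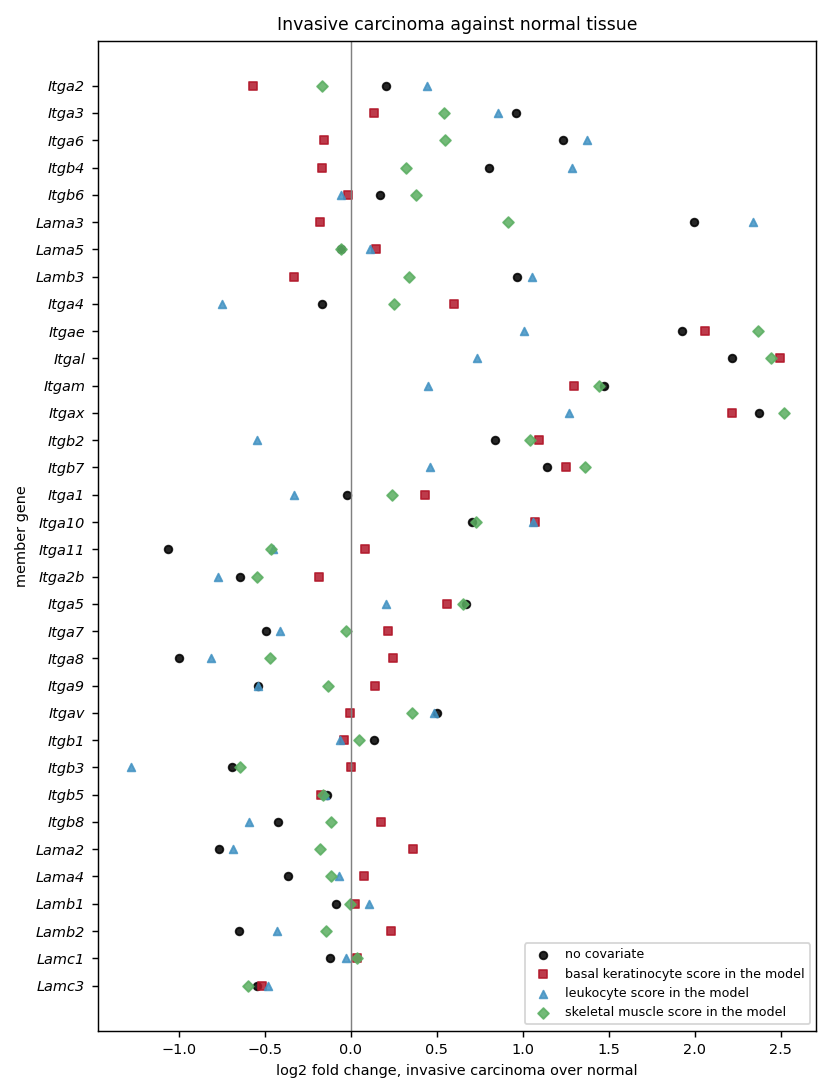
Log2 fold change of 34 members in invasive carcinoma over normal tissue, without a covariate and with a basal keratinocyte, leukocyte or skeletal muscle marker score in the model. The red squares of Lama3, Lamb3, Itga6 and Itgb4 lie left of zero, and the blue triangle of Itgb2 does too, while Itgax stays to the right under all of them.

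Part of the leukocyte chains rose as early as hyperplasia. Against normal tissue Itgax, Itgae, Itgal and Itgb7 rose there, 4 of the 7 tested, where 8.22% of all genes were called higher. In invasive carcinoma 6 of the 7 rose and 0 fell, where 23.4% of all genes were called higher and 22.7% lower, with a median log2 fold change of 1.47, against 0.02 over all genes tested. Itga4 was the chain not called. Counts were low, from 13 to 501 per sample for these 7 genes.

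Itgax (chr7:128129547-128150657), the αX chain (CD11c) abundant on dendritic cells and some macrophages, had the smallest adjusted p of all members. It measured 1.63, 1.80 and 1.71 CPM in the normal samples. Lowest, median and highest values were 6.03, 7.82 and 9.501 CPM at hyperplasia, 4.90, 7.68 and 11.3 at dysplasia, 7.85, 10.3 and 15.3 at carcinoma in situ and 5.89, 9.15 and 11.3 at invasive carcinoma. Each of the 27 samples outside the normal group lay above the 3 normal samples. The log2 fold change was 2.37 ± 0.25 in invasive carcinoma against normal tissue (adjusted p = 3.09e-07), and 0.22 against hyperplasia, which was not called (adjusted p = 0.299).

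Itgae (chr11:73090583-73147446), the αE chain (CD103) of intraepithelial T cells and some dendritic cells, was also higher from hyperplasia on. Its values were 0.813, 1.52 and 1.10 CPM in normal samples, from 2.69 through a median of 4.54 to 5.62 CPM at hyperplasia, from 1.26 through 2.80 to 4.50 at dysplasia, from 3.89 through 4.57 to 6.25 at carcinoma in situ and from 2.93 through 3.90 to 6.19 at invasive carcinoma. All hyperplasia and carcinoma samples lay above the normal ones, and in dysplasia sample 6, at 1.26 CPM, lay within their range. Itgae rose by 1.92 ± 0.33 (log2) in hyperplasia (adjusted p = 0.000255) and by 1.92 ± 0.34 in invasive carcinoma (adjusted p = 7.46e-05), each against normal tissue.

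Itgb7 (chr15:102215995-102231944), the β7 chain that pairs with αE and α4, measured 1.90, 1.63 and 2.46 CPM in normal samples. It ran from 3.82 through 4.51 to 6.29 CPM at hyperplasia, from 2.92 through 3.55 to 5.94 at dysplasia, from 3.23 through 5.05 to 5.51 at carcinoma in situ and from 2.88 through 4.38 to 6.16 at invasive carcinoma. No later sample reached down to the normal range. Itgb7 rose by 1.21 ± 0.24 (log2) in hyperplasia (adjusted p = 0.00136) and by 1.14 ± 0.25 in invasive carcinoma (adjusted p = 0.000603).

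Itgal (chr7:127296260-127335138), the αL chain of LFA-1 on lymphocytes and other leukocytes, was higher again in invasive carcinoma than in hyperplasia. It measured 2.66, 0.732 and 1.01 CPM in normal samples, with sample 1 apart. Lowest, median and highest values were 2.36, 3.27 and 4.04 CPM at hyperplasia, 2.05, 3.71 and 6.92 at dysplasia, 4.37, 6.53 and 8.35 at carcinoma in situ and 5.30, 6.97 and 8.17 at invasive carcinoma. All 6 invasive carcinoma samples exceeded all hyperplasia samples, with a log2 fold change of 1.07 ± 0.22 (adjusted p = 0.00062). Against normal tissue the change was 2.22 ± 0.34 (adjusted p = 2.11e-05), and 2.96 without normal sample 1. The hyperplasia call, 1.14 (adjusted p = 0.0163), was lost without normal sample 2 (0.81, adjusted p = 0.172) or without normal sample 3 (0.91, adjusted p = 0.107), and without normal sample 1 it was 1.87.

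Itgam (chr7:128062640-128118491), the αM chain (CD11b) of myeloid cells, was called in the carcinoma stages and not before. It measured 1.30, 1.41 and 1.93 CPM in normal samples, from 1.47 through a median of 2.27 to 3.30 CPM at hyperplasia, from 1.65 through 1.90 to 2.93 at dysplasia, from 2.05 through 3.15 to 4.90 at carcinoma in situ and from 2.50 through 4.64 to 5.58 at invasive carcinoma. The invasive carcinoma samples all lay above the normal ones and 4 of 6 lay above every hyperplasia sample. The log2 fold change was 1.47 ± 0.32 against normal tissue (adjusted p = 0.000535) and 0.89 ± 0.22 against hyperplasia (adjusted p = 0.00276). Itgam shares 3450 of its 5024 exon bases with Gm49368 on the same strand, so reads there may have been left out or split by the counting, and its level is uncertain.

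Itgb2 (chr10:77530252-77565708), the β2 chain (CD18) shared by Itgal, Itgam, Itgax and Itgad, had a smaller fold change in invasive carcinoma than Itgal, Itgam and Itgax. It measured 7.21, 4.96 and 8.75 CPM in normal samples. Lowest, median and highest values were 6.63, 8.58 and 13.4 CPM at hyperplasia, 5.61, 7.07 and 12.03 at dysplasia, 9.32, 11.2 and 20.8 at carcinoma in situ and 10.9, 11.3 and 15.4 at invasive carcinoma. Hyperplasia and dysplasia overlapped with normal tissue and the carcinoma samples did not. The log2 fold change in invasive carcinoma was 0.84 ± 0.26 (adjusted p = 0.00994), and without normal sample 2 it was 0.65 (adjusted p = 0.0802). Itga4, the α4 chain that pairs with β1 or β7, averaged 5.04 ± 0.687 CPM in invasive carcinoma and 5.66 ± 1.48 CPM in normal tissue, a log2 fold change of -0.17 (adjusted p = 0.561). It shares 1124 exon bases with Cerkl on the opposite strand, and the strand setting of the counting is not given in the sources used here.

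**Figure D4:**
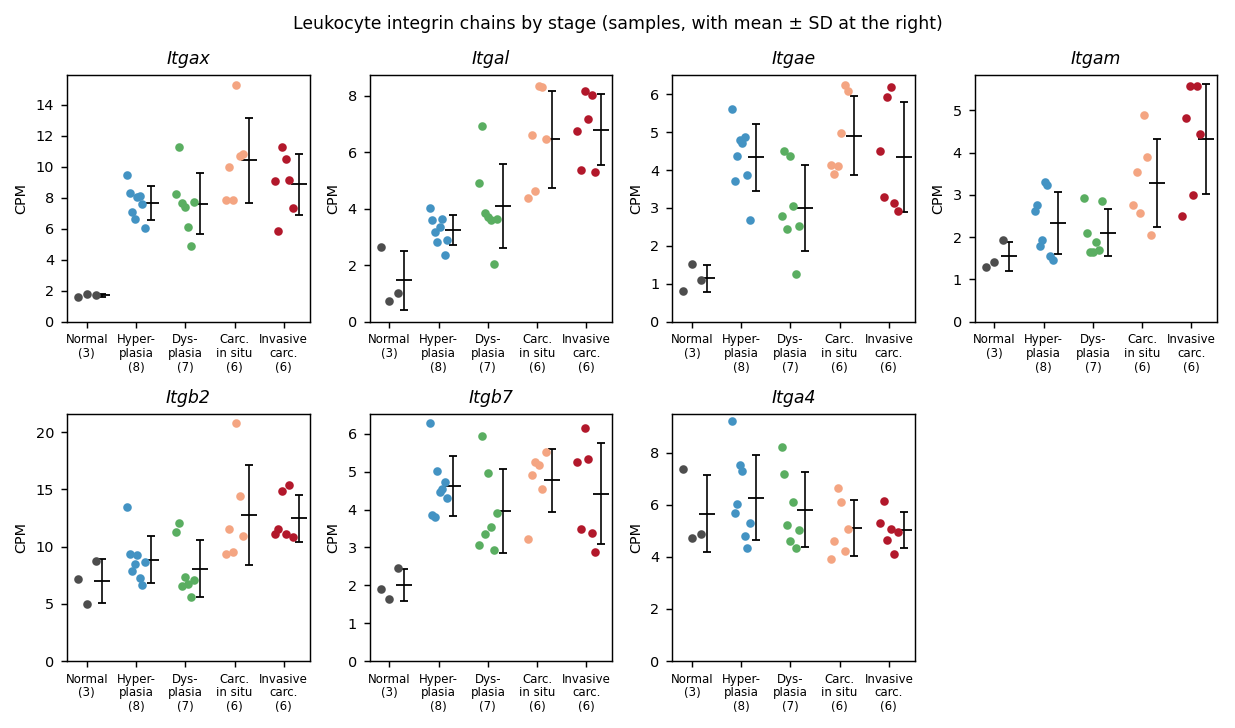
CPM of 7 leukocyte chains (panels) in each sample (points) by stage, with the mean ± SD beside the points. For Itgax the normal samples lie at 1.63 to 1.80 CPM and all others at 4.90 CPM or more, whereas the hyperplasia and normal points overlap for Itgb2, Itgam and Itga4.

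Leukocyte markers moved with these chains. All 7 general leukocyte markers rose in invasive carcinoma against normal tissue and 6 of the 7 in hyperplasia, and the summed levels were 95.4 to 143.2 CPM in hyperplasia, against 53.2 to 78.3 CPM in normal tissue. T cell markers rose in 6 of 8 in invasive carcinoma, neutrophil markers in 2 of the 5 tested and macrophage markers in 2 of 8. Of the 7 dendritic and Langerhans cell markers tested 3 rose and 1 fell, and their sums were 44.65 to 76.62 CPM in invasive carcinoma and 35.98 to 57.18 CPM in normal tissue. Of the 2 B cell markers tested 0 rose and 1 fell, and of the 5 mast cell markers 0 rose and 0 fell. With the leukocyte score in the model Itgax was still called in invasive carcinoma against normal tissue, at 1.27 (adjusted p = 0.00236). Itgae was then 1.01 (adjusted p = 0.123), Itgal 0.73 (0.0832), Itgam 0.45 (0.465) and Itgb7 0.46 (0.368). In hyperplasia against normal tissue that score ended the calls of Itgal, at 0.24 (adjusted p = 0.563), and Itgb7, at 0.78 (0.0731), while Itgax, at 1.46 (2.76e-05), and Itgae, at 1.34 (0.0224), stayed called. Itgb2 was -0.55 (0.0532) in invasive carcinoma, -0.54 in hyperplasia (adjusted p = 0.0294) and -0.53 in dysplasia (0.0125), each against normal tissue. With the skeletal muscle score in the model all 6 stayed called, at 1.04 to 2.52.

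The remaining integrin chains moved both ways. Against normal tissue, 3 of the 13 rose in invasive carcinoma (Itgav, Itga5 and Itga10) and 6 fell (Itga2b, Itga7, Itga8, Itga9, Itga11 and Itgb3), with a median log2 fold change of -0.43; of all genes 23.4% rose and 22.7% fell. In invasive carcinoma against hyperplasia Itgav rose, and Itga1, Itga7, Itga8, Itga9, Itga11 and Itgb8 fell, where 19.1% of all genes rose and 19.2% fell. Of those 6 falls none kept its call whichever sample was left out: without invasive carcinoma sample 9 Itga8 was -0.58 (adjusted p = 0.0907) and Itga11 -0.62 (0.104), without sample 12 Itga9 was -0.29 (0.106) and Itga7 -0.30 (0.0634), and without sample 6 Itga1 was -0.30 (0.0644).

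Itgav (chr2:83724397-83806916), the αV chain shared by several receptors of fibronectin, vitronectin and latent TGF-β, had the smallest adjusted p of this set. It measured 53.8, 58.1 and 64.8 CPM in normal samples, from 57.1 through a median of 62.5 to 75.6 CPM at hyperplasia, from 63.7 through 73.1 to 76.3 at dysplasia, from 68.8 through 72.4 to 86.2 at carcinoma in situ and from 68.9 through 82.4 to 106 at invasive carcinoma. All carcinoma samples lay above all normal samples. The log2 fold change in invasive carcinoma was 0.50 ± 0.10 against normal tissue (adjusted p = 0.000358) and 0.38 ± 0.08 against hyperplasia (adjusted p = 0.000464). Of its β partners, Itgb5 averaged 107 ± 13.7 CPM in invasive carcinoma and 118 ± 4.44 CPM in normal tissue (-0.14, adjusted p = 0.234).

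Itga5, the α5 chain of the fibronectin receptor α5β1, measured 17.1, 16.2 and 14.1 CPM in normal samples, from 14.8 through 20.2 to 22.4 CPM at hyperplasia, from 14.1 through 17.0 to 25.0 at dysplasia, from 15.4 through 24.6 to 34.4 at carcinoma in situ and from 17.5 through 22.3 to 35.2 at invasive carcinoma. The invasive carcinoma samples lay just above the normal ones, and the log2 fold change was 0.67 ± 0.22 (adjusted p = 0.0152); without normal sample 3 it was 0.61 (adjusted p = 0.0696). Itga10, a collagen receptor chain known from cartilage, measured 1.14, 0.788 and 1.54 CPM in normal samples, from 1.62 through 1.90 to 2.94 CPM at hyperplasia, from 1.65 through 1.92 to 2.80 at dysplasia, from 1.495 through 1.93 to 2.67 at carcinoma in situ and from 1.52 through 1.92 to 2.45 at invasive carcinoma. Every hyperplasia sample and 5 of 6 invasive carcinoma samples lay above every normal sample. The changes of 0.82 in hyperplasia (adjusted p = 0.0205) and 0.70 in invasive carcinoma (adjusted p = 0.0196) were lost without normal sample 2 (0.59 and 0.198 in hyperplasia, 0.50 and 0.142 in invasive carcinoma). It shares 1739 exon bases with Gm42957 on the same strand, so its level is uncertain.

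Itgb1 (chr8:128685654-128733200), the β1 chain that pairs with most α chains, measured 209.8, 223 and 229 CPM in normal samples. It ran from 185 through a median of 213 to 232 CPM at hyperplasia, from 181 through 187 to 234 at dysplasia, from 193 through 228 to 264 at carcinoma in situ and from 189 through 224 to 336 at invasive carcinoma. The groups overlapped throughout, and its adjusted p over the 5 stages was 0.0717.

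Itga8, a partner of β1 that binds nephronectin, measured 5.09, 2.93 and 3.43 CPM in normal samples, from 1.66 through 3.18 to 4.59 CPM at hyperplasia, from 2.01 through 3.67 to 3.90 at dysplasia, from 0.872 through 1.45 to 2.49 at carcinoma in situ and from 1.16 through 1.70 to 3.45 at invasive carcinoma. All carcinoma in situ samples lay below all normal samples, and in invasive carcinoma sample 5, at 3.45 CPM, lay within the normal range. It fell by 0.96 on the log2 scale in carcinoma in situ against dysplasia (adjusted p = 0.0329), and by 0.999 in invasive carcinoma against normal tissue (adjusted p = 0.0124). Without normal sample 1 the change against normal tissue was -0.73 (adjusted p = 0.108).

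Itga9, a partner of β1 that binds tenascin-C and osteopontin, measured 14.1, 18.8 and 20.4 CPM in normal samples, from 13.0 through 14.5 to 21.4 CPM at hyperplasia, from 10.9 through 11.3 to 14.5 at dysplasia, from 11.3 through 12.5 to 15.7 at carcinoma in situ and from 8.65 through 11.5 to 18.5 at invasive carcinoma. Of the 6 invasive carcinoma samples 5 lay below every normal sample. It fell by 0.54 on the log2 scale against normal tissue (adjusted p = 0.0128), and the change was -0.43 without normal sample 3 (adjusted p = 0.0821). Itgb8, a β partner of αV, measured 5.53, 7.32 and 4.40 CPM in normal samples, from 5.09 through 6.499 to 7.84 CPM at hyperplasia, from 3.17 through 4.72 to 5.25 at dysplasia, from 3.63 through 4.21 to 5.73 at carcinoma in situ and from 1.94 through 4.12 to 7.59 at invasive carcinoma. Of the 6 invasive carcinoma samples 5 lay below every hyperplasia sample. It fell by 0.61 (adjusted p = 0.0173) in that comparison, a call lost without invasive carcinoma sample 9 (-0.45, adjusted p = 0.0557).

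Itga11, a collagen receptor chain of fibroblasts, averaged 3.602 ± 2.25 CPM in invasive carcinoma and 7.46 ± 1.92 CPM in normal tissue, and fell by 1.06 on the log2 scale (adjusted p = 0.0198; -0.82 and 0.119 without normal sample 3). Itga7, the laminin receptor chain of skeletal muscle, averaged 61.8 ± 13.4 and 87.0 ± 18.03 CPM in the same groups and fell by 0.49 (adjusted p = 0.0163; -0.36 and 0.115 without normal sample 2). Itga1, a collagen receptor chain of mesenchymal and other cells, averaged 23.0 ± 2.63 CPM in normal tissue, 28.4 ± 4.37 CPM in hyperplasia and 22.7 ± 1.43 CPM in invasive carcinoma, and fell in invasive carcinoma against hyperplasia (-0.32, adjusted p = 0.0301). It shares 685 exon bases with Gm49395.

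The falls of Itgb3 and Itga2b, the chains of the platelet fibrinogen receptor αIIbβ3, rested on 1 normal sample. Itgb3 measured 4.59 to 7.45 CPM in invasive carcinoma, against 17.7 CPM in normal sample 1 and 6.08 and 5.50 CPM in the other normal samples. Itga2b measured 6.15 to 8.81 CPM in invasive carcinoma, against 18.5 CPM in normal sample 1 and 8.67 and 8.79 CPM in the other normal samples. Normal sample 1 was also the normal sample with 37.1 CPM of platelet markers and 756.3 CPM of erythrocyte markers, against 252.0 and 242.7 CPM of erythrocyte markers in the other normal samples. Invasive carcinoma samples held 4.20 to 50.8 CPM of platelet markers. Without normal sample 1, Itgb3 was 0.07 in invasive carcinoma (adjusted p = 0.826; -0.69 and 0.0307 with it) and -0.01 in hyperplasia (adjusted p = 0.983; -0.75 and 0.0396 with it). Itga2b was -0.17 in invasive carcinoma without it (adjusted p = 0.414; -0.65 and 0.00516 with it).

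With the basal keratinocyte score in the model the differences of Itga7, Itga8, Itga9 and Itga11 between invasive carcinoma and normal tissue were 0.22, 0.24, 0.14 and 0.08, with adjusted p of 0.733, 0.884, 0.868 and 0.975, and that of Itgav was -0.0037 (0.996). With the skeletal muscle score in the model Itga7 was -0.03 (adjusted p = 0.920), Itga8 -0.47 (0.402), Itga9 -0.13 (0.637) and Itga11 -0.46 (0.481), while Itgav stayed called at 0.35 (0.0372). Of the 14 muscle markers 12 fell in invasive carcinoma against normal tissue. Of the 7 fibroblast markers 3 fell, and their sums were 693.5 to 1229 CPM in invasive carcinoma, against 1352 to 1617 CPM in normal tissue.

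Among the other laminins, Lama2, Lamb2 and Lamc3 fell in invasive carcinoma against normal tissue, 3 of the 7, and 0 rose, where 22.7% of all genes fell and 23.4% rose. Their median log2 fold change was -0.37, against 0.02 over all genes tested. Lama2 (chr10:26980036-27619758), the α2 chain of the muscle and peripheral nerve basement membrane, measured 37.6, 27.3 and 33.8 CPM in normal samples. It ran from 25.7 through a median of 32.1 to 50.2 CPM at hyperplasia, from 24.0 through 34.6 to 44.6 at dysplasia, from 14.7 through 22.7 to 35.3 at carcinoma in situ and from 12.8 through 18.9 to 27.0 at invasive carcinoma. Every invasive carcinoma sample lay below every normal sample. It fell by 0.76 on the log2 scale against normal tissue (adjusted p = 0.0115; -0.65 and 0.0566 without normal sample 1) and by 0.79 against hyperplasia (adjusted p = 0.00239).

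Lamb2 (chr9:108479736-108490530), the β2 chain found in muscle, nerve and vessel basement membranes, measured 130.4, 154 and 153 CPM in normal samples. Its lowest, median and highest values were 105, 121 and 161 CPM at hyperplasia, 104, 130.2 and 145 at dysplasia, 78.5, 105 and 148 at carcinoma in situ and 61.7, 97.5 and 120.2 at invasive carcinoma. Again no invasive carcinoma sample reached the normal range. It fell by 0.65 against normal tissue (adjusted p = 0.00529) and by 0.46 against hyperplasia (adjusted p = 0.0132). Lamc3, the γ3 chain, averaged 3.22 ± 1.05 CPM in invasive carcinoma and 4.69 ± 0.493 CPM in normal tissue and fell by 0.55 (adjusted p = 0.0437); 7 of the 30 ways of leaving out a sample ended that call.

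The more general chains were not called by the edgeR test that defines a call here. Lamc1, the γ1 chain of most laminins, averaged 69.3 ± 10.2 CPM in invasive carcinoma and 75.3 ± 1.70 CPM in normal tissue (-0.12, adjusted p = 0.494). Lamb1 averaged 32.4 ± 5.65 and 34.4 ± 7.43 CPM in the same groups (-0.09, adjusted p = 0.639), and Lama4, a chain of vessel basement membranes, 25.4 ± 7.95 and 32.7 ± 9.35 CPM (-0.37, adjusted p = 0.132). In limma-voom Lama4 was called lower in that comparison (-0.68, adjusted p = 0.00353). Against hyperplasia limma-voom called Lama4 (-0.45, adjusted p = 0.0170), Lamb1 (-0.30, 0.0260) and Lamc1 (-0.28, 0.0296) lower in invasive carcinoma. Lama1, the α1 chain of embryonic basement membranes, had 109 counts in all. In carcinoma in situ its counts summed to 68, with 25 in sample 10 and 23 in sample 7 and 0 in sample 4, against 6 in the 7 dysplasia samples together. It was called higher there (log2 3.42, adjusted p = 0.0175, edgeR, against dysplasia), and in invasive carcinoma its counts summed to 21. Lama1 passed the expression filter only through carcinoma in situ samples 2, 7 and 10 (0.507, 0.955 and 1.01 CPM). No other sample exceeded 0.414 CPM. The filter thus favoured the group called higher, and the call cannot stand as a test. DESeq2 gave no adjusted p for it, and a fit of only these 2 stages did not test it.

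Markers of muscle, nerve and vessel moved with these chains. Of the markers, 12 of 14 skeletal muscle, 4 of 5 Schwann cell and 7 of 7 endothelial fell in invasive carcinoma against normal tissue. The endothelial sums were 168.1 to 276.1 CPM in invasive carcinoma and 361.3 to 417.7 CPM in normal tissue, and the Schwann cell sums were 119.3 to 211.0 and 271.1 to 448.4 CPM. With the skeletal muscle score in the model Lama2 was -0.18 (adjusted p = 0.631) and Lamb2 -0.15 (0.560) in invasive carcinoma against normal tissue. The basal keratinocyte score turned the direction of both, to 0.36 for Lama2 (adjusted p = 0.656) and 0.23 for Lamb2 (0.724). The part of the endothelial and Schwann cell markers in these falls was not tested.

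Levels can be compared between genes per kilobase of exon. On the scale of CPM per kilobase Itgb1 was the highest integrin chain at every stage, with 59.3 ± 13.9 in invasive carcinoma and 54.1 ± 2.45 in normal tissue (SD, n = 6 and 3). Itgb5 came next in normal tissue at 33.1 ± 1.25, and Itgb4 came next in all later stages, at 33.7 ± 2.90 at hyperplasia, 36.7 ± 5.27 at dysplasia, 45.1 ± 10.2 at carcinoma in situ and 43.5 ± 17.4 at invasive carcinoma. In invasive carcinoma the neighbours Itgb1, Itgb4, Itga6 (35.5 ± 19.3) and Itgb5 (30.1 ± 3.87) lay within their spread of each other. Among the laminins Lamb3 had the highest mean in invasive carcinoma, at 22.5 ± 9.98, and stood above Lamb2, at 15.3 ± 3.99, by less than its SD. The order differed between samples. In CPM, Lamb3 was at 207 and 255 and Lamb2 at 67.3 and 61.7 in invasive carcinoma samples 9 and 12. In samples 3 and 5 Lamb3 was at 113 and 90.8 and Lamb2 at 120 and 114. In normal tissue Lamb2 was the highest, at 24.0 ± 2.19, ahead of Lamb3 at 11.5 ± 0.891. Lama3 was at 14.9 ± 11.6 in invasive carcinoma and 3.74 ± 0.209 in normal tissue, and Lama5 at 6.401 ± 0.739 and 6.66 ± 1.18.

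Chains that form one receptor or laminin, or laminin chains of one kind, were compared as ratios of counts within a library, which do not depend on library scaling; 18 pairs were tested in each of 2 comparisons by exact two-sided permutation of samples with adjustment over the pairs. Against the 3 normal samples the smallest p that 84 splits allow is 0.0238, and 8 pairs reached it, but the adjusted p was then 0.0536 and 0 pairs passed. The pseudocount was 0.5 counts, and with 5 counts 9 pairs passed. Pairs at the smallest p share an adjusted p that depends on how many reach it, so they pass or fail together. For those 8 pairs all 6 invasive carcinoma samples lay on one side of all 3 normal samples. Against hyperplasia 9 of the 18 pairs passed.

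Among the β2 partners the log2 ratio of Itgal to Itgb2 was -2.41 ± 0.87 in normal tissue, -1.44 ± 0.22 in hyperplasia and -0.88 ± 0.18 in invasive carcinoma. The difference between invasive carcinoma and hyperplasia was 0.56 (exact permutation adjusted p = 0.00856), with 4 of 6 invasive carcinoma samples above all hyperplasia samples. The ratio of Itgax to Itgb2 was -1.97 ± 0.47 in normal tissue, -0.19 ± 0.27 in hyperplasia and -0.51 ± 0.32 in invasive carcinoma. It thus stood 1.46 above normal tissue in invasive carcinoma (exact permutation adjusted p = 0.0536) and 0.31 below hyperplasia (adjusted p = 0.119), neither of which passed. Among the β7 partners the log2 ratio of Itga4 to Itgb7 was 0.23 ± 0.49 in invasive carcinoma and 1.48 ± 0.48 in normal tissue, with no overlap (exact permutation adjusted p = 0.0536).

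Of the epithelial α chains, Itga6, Lama3, Itga3 and Itga2 were higher relative to their β chains in invasive carcinoma than in hyperplasia. The β chain of Itga3 and Itga2 is Itgb1, which is not in the epithelial set. The part of tissue make-up in these and the other ratios was not tested. The log2 ratio of Itgb4 to Itga6 was -0.01 ± 0.43 in invasive carcinoma, 0.70 ± 0.22 in hyperplasia and 0.36 ± 0.17 in normal tissue. Its difference from hyperplasia was -0.71 (exact permutation adjusted p = 0.00856), and that from normal tissue, -0.36, did not pass (0.286). The ratio of Lamb3 to Lama3 was 0.92 ± 0.12 in normal tissue, 0.60 ± 0.17 in hyperplasia and 0.08 ± 0.38 in invasive carcinoma, and the difference from hyperplasia was -0.52 (exact permutation adjusted p = 0.00856). The ratio of Itga3 to Itgb1 was -1.65 ± 0.20 in invasive carcinoma and -2.24 ± 0.22 in hyperplasia, with no overlap between the 2 groups (0.59, exact permutation adjusted p = 0.00856). Itga2 to Itgb1 was 0.32 higher (0.0320) and Itga7 to Itgb1 0.60 lower (0.0120) in the same comparison. Against normal tissue Itga2 to Itgb1 was 0.10 higher in invasive carcinoma, which did not pass (exact permutation adjusted p = 0.479). The log2 ratios of Itgb5 and of Itgb8 to Itgav fell by 0.33 and by 1.08 (exact permutation adjusted p = 0.00856 for each). The ratio of Lama5 to Lama2 was 1.96 ± 0.43 in invasive carcinoma and 1.20 ± 0.39 in hyperplasia (0.76, exact permutation adjusted p = 0.00856).

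**Figure D5:**
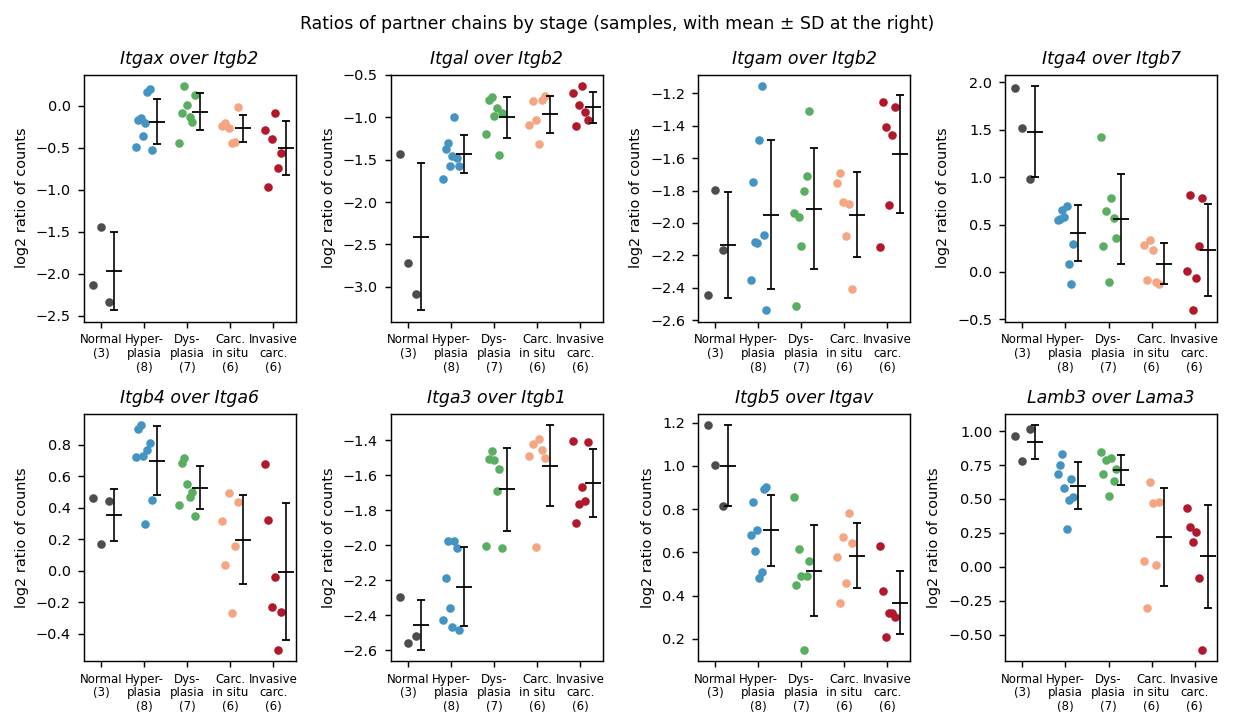
Log2 ratio of the counts of 2 chains within each library (points) for 8 of the 18 pairs (panels), by stage, with the mean ± SD beside the points. Itgax over Itgb2 steps up between the normal samples and hyperplasia, Itgal over Itgb2 has its highest mean in invasive carcinoma, and Itgb4 over Itga6 and Lamb3 over Lama3 have their lowest means there.

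Genes that work with integrins and laminins were read from 4 lists, all for invasive carcinoma against normal tissue, where 23.4% of all genes rose and 22.7% fell, with a median log2 fold change of 0.02. Here 2 of 15 hemidesmosome and basement membrane anchors rose and 7 fell. Col7a1, the collagen of the anchoring fibrils, averaged 147.5 ± 42.0 CPM in invasive carcinoma and 52.4 ± 10.7 CPM in normal tissue (log2 1.49 ± 0.27, adjusted p = 9.84e-05). Fras1, a basement membrane protein of the Fraser complex, averaged 2.76 ± 1.12 and 7.43 ± 1.04 CPM (-1.43, adjusted p = 5.88e-05), and its partner Frem1 changed by -1.17 (adjusted p = 0.0138). The list's median log2 fold change was -0.37.

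Of 26 integrin activators and focal adhesion genes 9 rose and 8 fell, with a median of 0.03 (all genes 0.02). Actn1, an actin crosslinker of focal adhesions, averaged 123 ± 70.9 CPM in invasive carcinoma and 29.6 ± 4.42 CPM in normal tissue (2.06 ± 0.36, adjusted p = 9.38e-05). Tns4, a tensin that binds β integrin tails, averaged 229.6 ± 69.0 and 100.6 ± 21.3 CPM in the same groups (1.19 ± 0.22, adjusted p = 0.000153), and Zyx, the focal adhesion protein zyxin, 89.6 ± 11.5 and 55.7 ± 8.16 CPM (0.69 ± 0.14, adjusted p = 0.000306).

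Of 18 integrin ligands other than laminins 15 were tested, and 6 rose and 2 fell, with a median of 0.50 (all genes 0.02). Cdh1, E-cadherin, which αEβ7 binds, averaged 327 ± 44.3 CPM in invasive carcinoma and 205 ± 26.9 CPM in normal tissue (0.67 ± 0.12, adjusted p = 7.33e-05). Tnc, tenascin-C, averaged 56.1 ± 30.02 and 22.3 ± 1.34 CPM (1.33 ± 0.46, adjusted p = 0.0204). Npnt, nephronectin, the ligand of α8β1, averaged 8.09 ± 2.04 and 14.96 ± 1.92 CPM (-0.89 ± 0.16, adjusted p = 8.58e-05) in the comparison in which Itga8 also fell.

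Of 12 laminin receptors other than integrins 2 rose and 8 fell, with a median of -0.46 (all genes 0.02). Sdc1, syndecan-1, a proteoglycan of epithelial cells, averaged 531.5 ± 156 CPM in invasive carcinoma and 258 ± 28.4 CPM in normal tissue (1.04 ± 0.20, adjusted p = 0.000147). Sgcb, a sarcoglycan of the muscle dystrophin complex, changed by -0.74 (adjusted p = 0.00013), and Utrn, utrophin, by -0.55 (adjusted p = 0.000254). The falls stood beside the lower muscle marker sums given above, and the part of muscle in them was not tested.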

How the data were processed

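RNA was measured in 30 oral tissue samples. Per the labels' protocols, total RNA was taken with a kit that yields DNA and RNA from one piece of tissue, and a kit for stranded mRNA was used for the libraries. Per the submitters' processing notes, cutadapt 2.4, STAR 2.7.2a and the GRCm38 build were used; the counting tool, its strand setting and the annotation are not given in the sources used here. The authors deposited raw counts per gene for 55487 identifiers; 55141 were paired with a symbol and 21379 had no count in any sample.

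From these counts, the software edgeR 4.0.16 (R 4.3.3) was applied with TMM factors (0.892 to 1.06), its expression filter (17638 genes kept), a mean per stage, all 30 samples in the model and robust quasi-likelihood tests; p-values were adjusted over all genes tested in each comparison. The biological coefficient of variation was 24.0%. SEs of log2 fold changes are the fold change divided by the root of the F statistic. Totals of 17725604 to 28023098 counts limit precision for genes near 1 CPM. Exon lengths and overlaps come from GENCODE M21 on GRCm38, and promoter windows from RefSeq GRCm38.p6. Chain pair ratios used a pseudocount of 0.5 count and scipy 1.17.1. Marker scores used as covariates are mean log2 CPM of each list. DESeq2 1.42.0 and limma 3.58.1 (voom) were alternatives, beside other scalings, no filter, left-out samples and a replicate block. The scripts were tested on simulated data.

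The members, marker lists and pathway lists were chosen with earlier results of these data known. All 36 members are accounted for; stage values are given for up to 6 members per kind of chain with the smallest adjusted p over the stages and for partner chains, and 3 genes with the smallest adjusted p over the stages are named per pathway list. Groups follow the pathological stage in the labels, and sample numbers come from the sample codes.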

Additional observations from a re-analysis of the deposited data

Results flagged for a closer look

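Within each stage of 4 to 10 samples, the gap of the highest or lowest sample to its neighbour was set against the whole range. Among 140 such groups 13 passed the 95% limit of that measure, which chance passes in about 1 of 20 groups. Invasive carcinoma sample 12 stood apart for Itga3 (126 CPM; next 84.1), Itgb4 (543 CPM; next 326) and Itga2 (19.1 CPM; next 13.9), and it also held the highest basal keratinocyte sum of its stage. Invasive carcinoma sample 5 stood apart for Itga8 (3.45 CPM; next 2.01) and Itga9 (18.5 CPM; next 12.3).

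Hyperplasia sample 1 stood apart for Itgb2 (13.4 CPM; next 9.35), Itga11 (9.30 CPM; next 6.52) and Lama2 (50.2 CPM; next 37.1), and it held the highest leukocyte sum of its stage, 143.2 CPM. Hyperplasia sample 5 was low for Lama5 (55.1 CPM; next 73.3). Dysplasia sample 7 was low for Itga3 (45.9 CPM; next 58.2), and dysplasia sample 1 was high for Itgb1 (234 CPM; next 191). In carcinoma in situ, sample 2 was high for Itgav (86.2 CPM; next 73.2) and sample 4 for Itga9 (15.7 CPM; next 12.8). The part of cell composition in these values was not tested.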

How the results depend on the processing

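The shares of all genes called under the settings of this section are not given. A change in a count may thus hold for all genes and is not a result about the members. Lama1, whose calls cannot stand as tests, is counted over the stages and in carcinoma in situ against normal tissue and against dysplasia. Counts of called members are compared here with 24 over the stages, 6 for hyperplasia, 10 for dysplasia, 18 for carcinoma in situ and 23 for invasive carcinoma against normal tissue, 1 in dysplasia against hyperplasia, 5 in carcinoma in situ against dysplasia and 17 in invasive carcinoma against hyperplasia. At an adjusted p under 0.01 the counts in that order were 15, 3, 5, 11, 14, 0, 0 and 9. With the basal keratinocyte score as a covariate they were 5 over the stages, 4 for dysplasia, 4 for carcinoma in situ and 3 for invasive carcinoma against normal tissue, 0 in dysplasia against hyperplasia, 1 in carcinoma in situ against dysplasia and 0 in invasive carcinoma against hyperplasia. With the leukocyte score they were 13, 6, 6 and 9 for the first 4 of these, 2 in dysplasia against hyperplasia and 0 in carcinoma in situ against dysplasia. With the skeletal muscle score they were 14 over the stages, 5 in dysplasia and 8 in invasive carcinoma against normal tissue, 0 in dysplasia against hyperplasia, 11 in carcinoma in situ against dysplasia and 2 in invasive carcinoma against hyperplasia. Fits of only the 2 stages compared called 15 members in invasive carcinoma against normal tissue, 5 in dysplasia against hyperplasia and 0 in carcinoma in situ against dysplasia. In dysplasia against hyperplasia the count was 0 with upper-quartile factors, 0 without the expression filter, 2 in DESeq2, 8 in limma-voom and 4 without normal sample 1, dysplasia sample 1 and invasive carcinoma sample 12. In carcinoma in situ against dysplasia it was 1 without the filter, 9 in limma-voom and 9 without those samples. With a pseudocount of 5 counts 9 chain pair ratios passed in invasive carcinoma against normal tissue. Pairs at the smallest possible p pass or fail together there, so this count does not measure how far the ratios changed. The cause of the other changes was not tested.

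Leaving out one sample at a time gave 20 to 26 members over the stages, 4 to 7 for hyperplasia, 5 to 10 for dysplasia, 13 to 20 for carcinoma in situ and 18 to 24 for invasive carcinoma against normal tissue. It gave 0 to 2 in dysplasia against hyperplasia, 0 to 12 in carcinoma in situ against dysplasia, 0 to 0 in invasive carcinoma against carcinoma in situ and 12 to 20 in invasive carcinoma against hyperplasia. For the chain pairs it gave 8 to 10 against hyperplasia, and 0 to 0 against normal tissue, where fewer splits raise the smallest possible p, so that the 0 says nothing about stability. Of the 23 members called in invasive carcinoma against normal tissue, 12 stayed called whichever sample was left out, of the 17 against hyperplasia 10 did, of the 18 in carcinoma in situ 11, of the 10 in dysplasia 3 and of the 6 in hyperplasia 3. In carcinoma in situ against dysplasia Lama1 alone of 5 kept its call in every such fit that tested it. Without carcinoma in situ sample 2, 7 or 10 the expression filter left Lama1 untested, so its stability is not known. Without carcinoma in situ sample 7 Itgb2 was 0.46 (adjusted p = 0.190) and Itga8 -0.83 (0.104), and without sample 2 Lamb3 was 0.49 (0.139).

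Whether replicate numbers pair the samples was not settled. Of 31 same-number pairs across stages 11 had a correlation of deviations over 0.1, with a range from -0.564 to 0.512 and a median of 0.0489. For other numbers the median was -0.00384, and the share over 0.1 was not counted. With the replicate number as a block 17 members were called over the stages, 13 in invasive carcinoma against normal tissue, 3 in carcinoma in situ against dysplasia and 4 in invasive carcinoma against hyperplasia.

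Some signs turned. With the leukocyte score Itgb2 was -0.54 for hyperplasia, -0.53 for dysplasia, -0.45 for carcinoma in situ and -0.55 for invasive carcinoma against normal tissue and -0.010 in invasive carcinoma against hyperplasia, and Lama1 was -0.55 in carcinoma in situ against normal tissue. With the basal keratinocyte score Itgb4 was -0.0014 in dysplasia against normal tissue, and in carcinoma in situ against normal tissue Itga6 was -0.061, Lamb3 -0.080, Itga9 0.12 and Itgav -0.084. In invasive carcinoma against normal tissue Itga6 was -0.15, Itgb4 -0.17, Lama3 -0.18, Lamb3 -0.33, Itga11 0.083, Itga7 0.22, Itga8 0.24, Itga9 0.14, Itgav -0.0037, Lama2 0.36 and Lamb2 0.23. In invasive carcinoma against hyperplasia Itga2 was -0.052, Lama3 -0.021, Lamb3 -0.056, Itga1 0.0084, Itga11 0.055, Itga7 0.12, Itga8 0.19, Itga9 0.12, Lama2 0.013 and Lamb2 0.17. Without normal sample 1 Itga2b was 0.0069 in carcinoma in situ against normal tissue (-0.65 at the other end, without normal sample 2) and Itgb3 0.072 in invasive carcinoma (-0.98 without normal sample 3), and Itgb3 was 0.039 there without normal sample 1, dysplasia sample 1 and invasive carcinoma sample 12. The cause was not tested. The 3 normal samples limit every comparison with normal tissue, and genes near 1 CPM rest on few counts.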
